A study of Mus musculus with 26 samples.

Results

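The genes described here are the 89, among 18198 in the deposited mouse RNA table, that stem cells expressed and that day 7 of reprogramming had not switched on. A gene was taken when its mean over 2 libraries reached 150 in embryonic stem cells (ESCs) and 75 in induced pluripotent stem cells (iPSCs), and stayed under 20 in mouse embryonic fibroblasts (MEFs) and in fibroblasts 7 days after Oct4, Sox2 and Klf4 (OSK) were added. The thresholds were met by 93 genes, of which Dazl, Hormad1, Tuba3a and Tcl1 were left out by name. Values in ESC, iPSC, MEF and OSK day 7 therefore chose the members, so levels and differences among these groups are given as a description, with no test. A comparison set of 140 genes met the same ESC, iPSC and MEF thresholds but had an OSK day 7 mean of 20 or more.

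RNA was sequenced from 13 groups of 2 libraries. MEFs were at passage 2 and grown with 10% FBS, and ESCs (strain CBA/CaJ X C57BL/6J, passages 20 to 24) and iPSCs (passages 5 to 8) were both grown in N2B27+2i+LIF. The reprogramming groups were MEFs of at most 2 passages infected with retrovirus: OSK at days 0, 1, 3, 5 and 7, OSK with cJun (the AP-1 subunit Jun) at days 0, 1, 3 and 7, and OSK with a lentiviral short hairpin against Sap30 (shSap30) at day 7. The labels give the medium of infected cells as iCD1 or ESC medium without assigning it to groups, do not give the strain of the other cells, and do not say how many iPSC clones were pooled or whether replicates were separate cultures, so p-values measure the spread between these libraries, which may be technical. No library with a control hairpin was analysed here.

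Reprogramming replaces the fibroblast programme with that of pluripotent cells. Pluripotency rests on a core of transcription factors and on signals that the cells make themselves, among them Nodal and Fgf4. In fibroblasts many stem cell and germ cell genes lie in closed chromatin, some under DNA methylation, and part of them are known to be switched on late in reprogramming. Mouse stem cells also express many Cys2His2 zinc-finger genes, which often stand in clusters of young, nearly identical copies, and proteins of this class are known for binding repeats and recruiting repressors.

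Every value is the authors' normalised score for a gene, a whole number that runs up to 21544 and sums to between 4619641 and 4624161 in each library. It holds no read depth, and it is not stated to be corrected for gene length, so levels are compared within a gene and not between genes. Sap30 was 20 and 41 with the hairpin, 301 and 378 in OSK day 7 libraries and 74 and 93 in those of day 7 with added Jun, and Jun was 4616 to 8981 with added Jun against 321 to 1010 in the OSK course. Replicate 1 of OSK day 5 stood apart, with Pou5f1 (Oct4) at 656 against 21544 in its partner, Sox2 at 1792 against 6116 and Klf4 at 3263 against 11663. The summed level of 11 fibroblast markers was 81618 and 86220 in MEF, 31499 and 12867 on OSK day 5, 12333 and 11395 on OSK day 7, 7908 and 14593 in iPSC and 218 and 751 in ESC. All 4 ESC and iPSC libraries had Nanog between 4616 and 5023, against 111 and 179 on OSK day 7. Their sums over 8 pluripotency markers, of which Fgf4 and Tdgf1 are members, ran from 21969 to 23148, against 8 and 20 in MEF. In bulk RNA, fewer cells that express a gene and less RNA per cell cannot be told apart.

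The median member stayed under 2% of its ESC level in every reprogramming group, while the comparison set climbed. As a share of each gene's own ESC mean, the median member stood at 0.256% in MEF, 0.291% on OSK day 0, 0.291% at day 1, 0.427% at day 3, 1.03% at day 5 and 1.64% at day 7. The same median in the 140 comparison genes was 1.34%, 2.98%, 4.72%, 13.7%, 23.3% and 34.6%. In iPSC the medians were 84.2% for the members and 74.2% for the comparison set. The gap at day 7 follows from the choice of genes. The values of days 0 to 5 did not enter it, but the sets were split on day 7 of the same course. The gap on earlier days is therefore not independent of the choice and is described only. In the comparison set the highest OSK day 7 means belonged to Pou5f1 and Sox2, which were themselves delivered, then to Trh, Mpzl2, the epithelial adhesion genes Cdh1 and Epcam, the alkaline phosphatase gene Alpl, and Sox13.

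**Figure D1:**
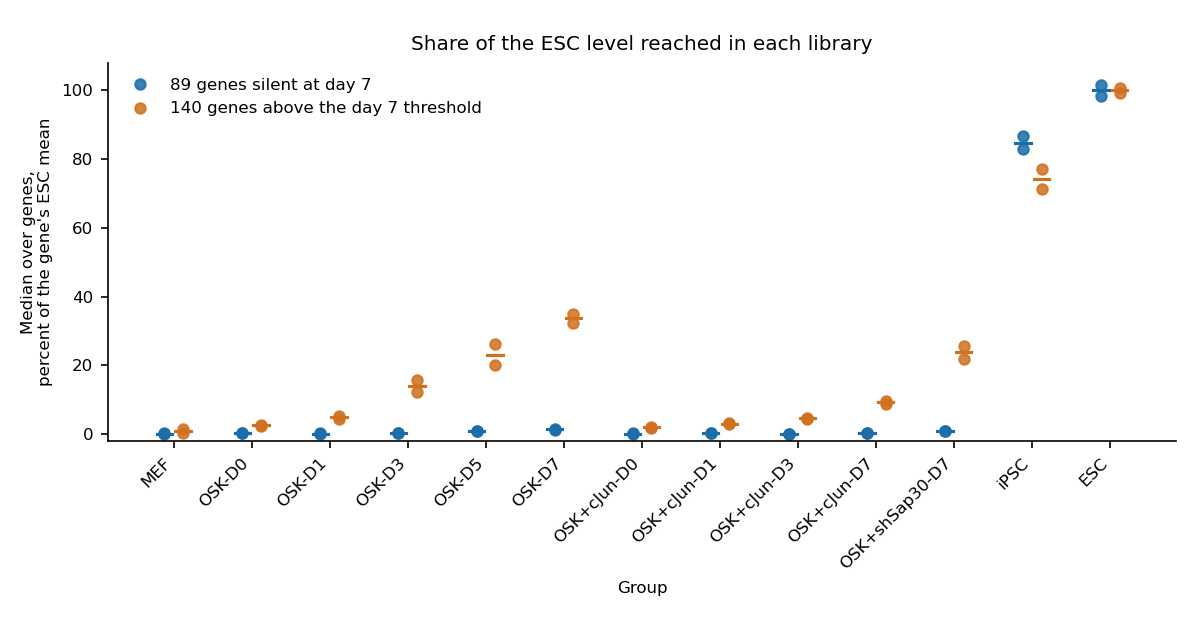
Median over genes of the level as a percent of the gene's own ESC mean (vertical axis) in each of the 13 groups (horizontal axis). Each point is 1 library and each bar the mean of 2, for the 89 members (blue) and the 140 comparison genes (orange). The blue points lie near 0 in every group but iPSC and ESC, while the orange ones climb along the OSK course.

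Silent did not mean absent from every library. Both libraries were at 0 for 28 members in MEF, 30 on OSK day 0, 32 at day 1, 24 at day 3, 11 at day 5 and 4 at day 7. The 4 that stood at 0 in both day 7 libraries were Krt42, Zfp640, Zfp978 and ENSMUSG00000071295. The keratin gene Krt42 was at 0 in all 22 libraries outside ESC and iPSC, where it stood at 167 and 165, and at 121 and 222. Summed over the 89 genes, the level was 256 and 334 in MEF, 627 and 770 on OSK day 7, 1180 and 1261 with the Sap30 hairpin, 34143 and 35802 in iPSC and 39846 and 40403 in ESC. Of the 89, 46 (51.7%) had both OSK day 7 libraries above both MEF libraries and 2 had both below, where 31.3% and 28.2% of all 16038 tested genes did, a difference that the thresholds bear on.

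**Figure D2:**
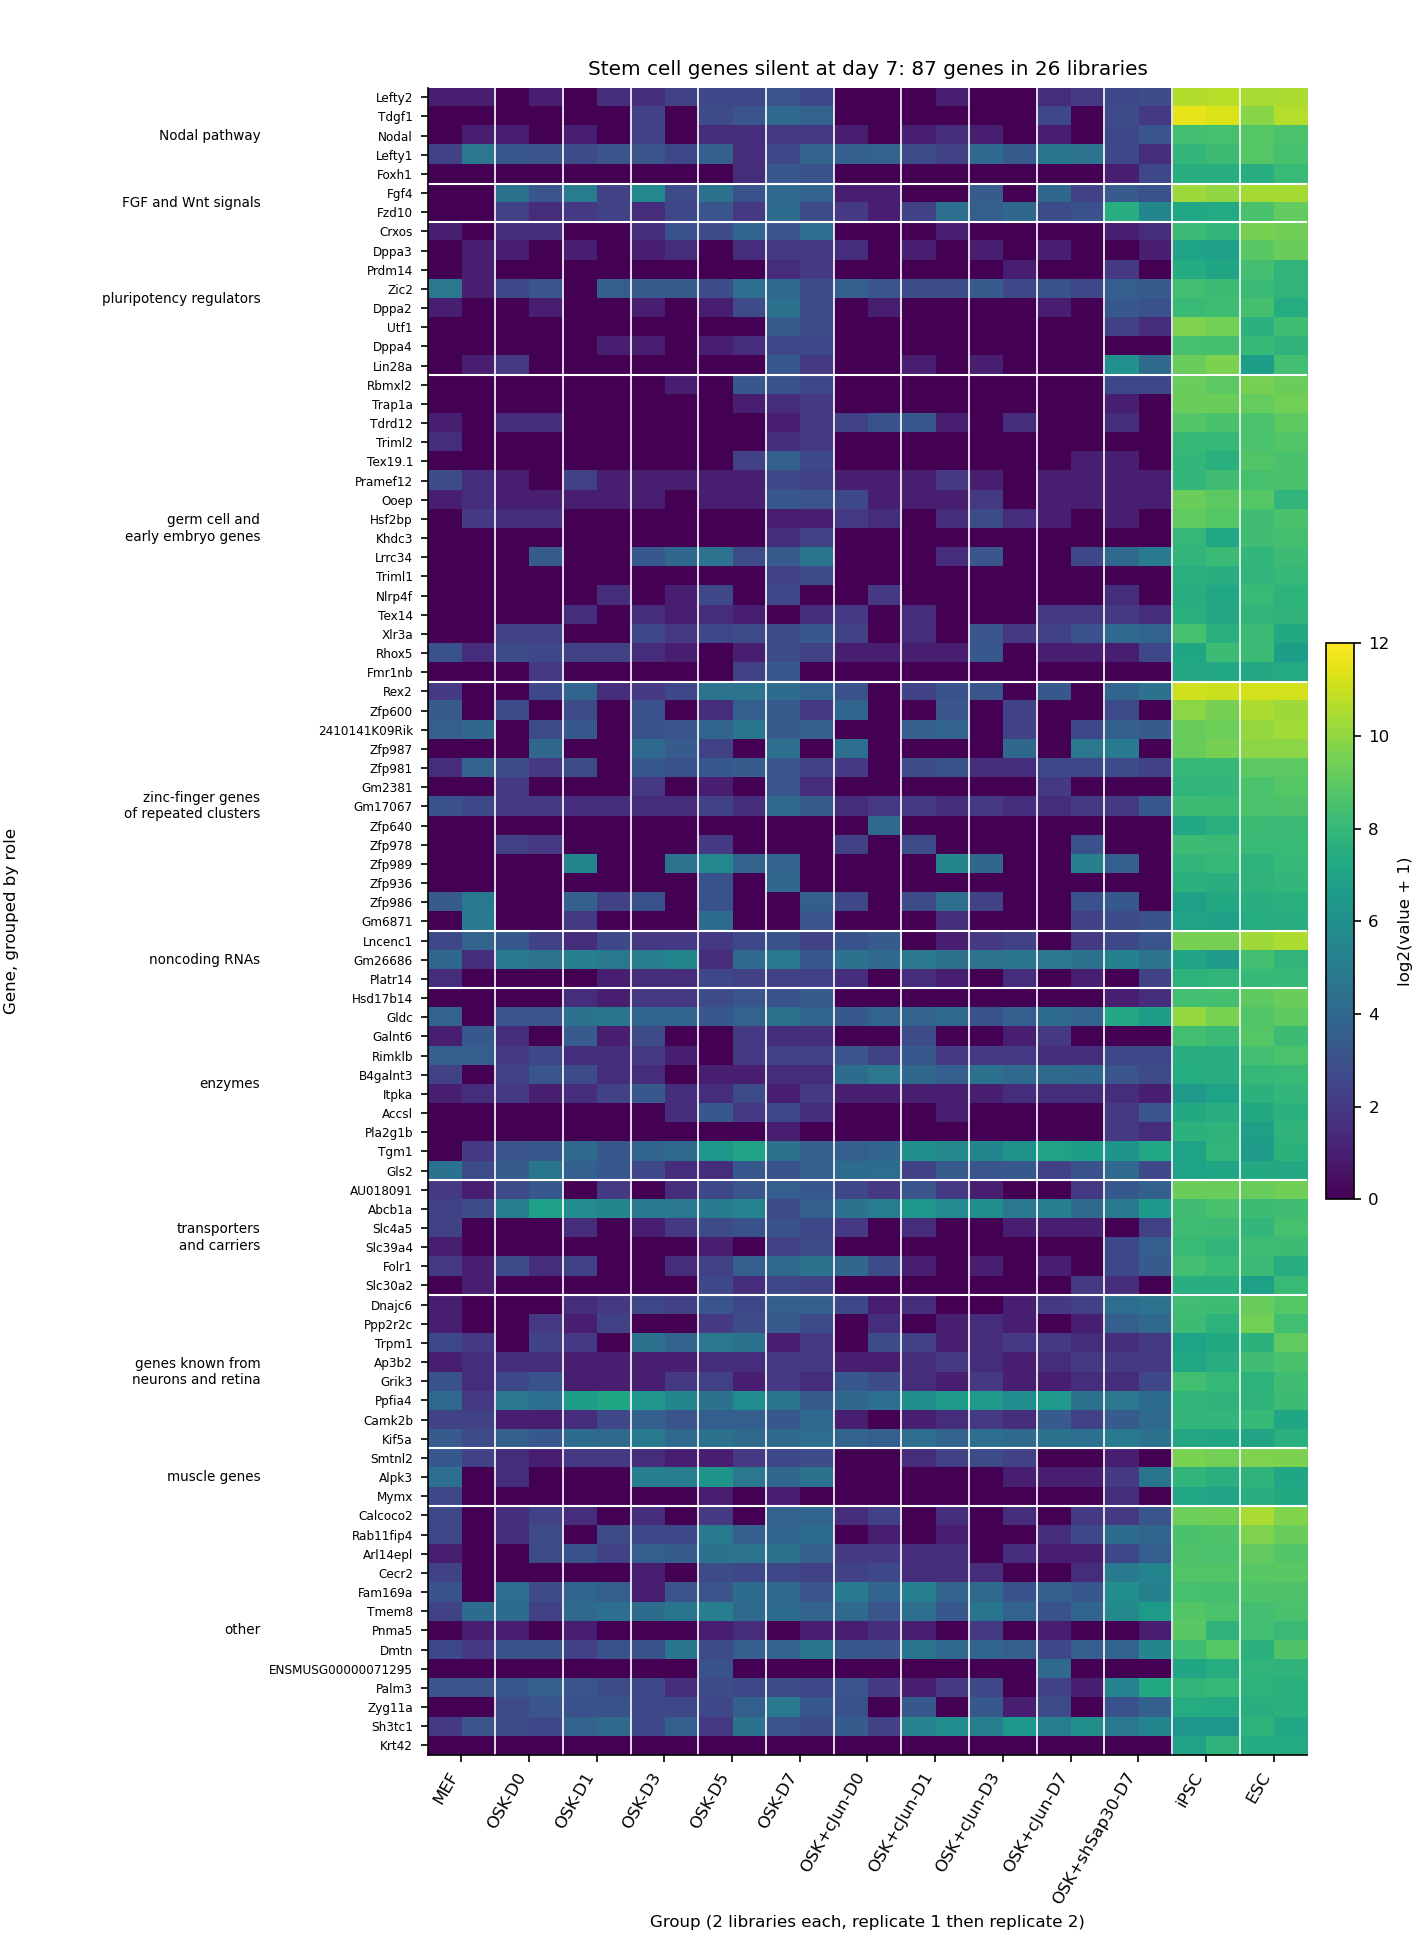
Level of 87 of the 89 genes (rows, grouped by role and then by ESC mean) in each of the 26 libraries (columns, 2 per group), as log2(value + 1) from dark (0) to yellow (12). Rows are dark up to the hairpin libraries and turn bright in iPSC and ESC; Tgm1, Ppfia4, Abcb1a and Sh3tc1 are partly lit during reprogramming.

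Membership turned on single low values. Just inside the day 7 threshold stood Zyg11a (28 and 9), the actin-binding gene Dmtn (13 and 25) and Gm26686 (30 and 9), and just outside it Slco4c1 (0 and 40), Platr10 (23 and 18) and Syt9 (26 and 15). Replicate 1 alone gave 89 genes, 72 of them members, and replicate 2 alone 92, of which 77 were members. The thresholds were met in both replicates by 61 genes, which is 68.5% of the list from replicate 1 and 66.3% of that from replicate 2. An OSK day 7 mean under 10 left 60 of the 89, and one under 40 gave 118 genes.

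The tests below compare groups that the rule did not use. A gene is called when its limma p, adjusted by Benjamini-Hochberg over 16038 tested genes, is below 0.05 and the difference of mean log2(value + 1), written log2 difference, is at least 1 in size. The scale understates the differences of genes near 0. Tested genes reached 10 in 2 or more of the 26 libraries; all 89 members passed, but 42 of them did so through ESC and iPSC only, and 47 had at least 2 such values among the other 22 libraries. No fold is given where both libraries of 1 group are at 0, except for the flagged difference of Dnajc6 at the end.

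The Nodal pathway, a TGF-beta type signal of the early embryo, gave 5 members: the ligand gene Nodal, the co-receptor gene Tdgf1 (Cripto), the secreted inhibitor genes Lefty1 and Lefty2, and Foxh1, which encodes the DNA-binding partner of Smad2 and Smad3. Nodal (ENSMUSG00000037171) lies on the plus strand at chr10:61417972-61425338 and Tdgf1 (ENSMUSG00000032494) on the minus strand at chr9:110939603-110946158, in GRCm38 (mm10). Their upstream sequences from RefSeq (GRCm38.p6), 250 bases ending at the base before the annotated start, are shown because these genes were at 0 or 1 in MEF and high in both kinds of stem cell. The windows are chr10:61417722-61417971 (plus) and chr9:110946159-110946408 (minus), 5′ to 3′, and capitals mark CpG dinucleotides, the site of DNA methylation.
Nodal: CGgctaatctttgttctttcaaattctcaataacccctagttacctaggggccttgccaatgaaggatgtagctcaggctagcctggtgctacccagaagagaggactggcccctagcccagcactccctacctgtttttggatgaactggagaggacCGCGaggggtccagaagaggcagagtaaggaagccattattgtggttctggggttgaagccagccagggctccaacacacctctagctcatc
Tdgf1: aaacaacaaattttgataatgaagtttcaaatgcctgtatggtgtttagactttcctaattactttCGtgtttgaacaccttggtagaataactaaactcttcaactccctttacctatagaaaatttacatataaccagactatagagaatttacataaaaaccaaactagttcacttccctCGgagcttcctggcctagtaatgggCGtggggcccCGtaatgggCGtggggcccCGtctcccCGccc
The Nodal window holds 3 CpG, a ratio of observed to expected CpG of 0.170, and the Tdgf1 window 7, a ratio of 0.648. Over all 32817 RefSeq windows of this length the median ratio was 0.373 (quartiles 0.167 and 0.723) and the median count 6. A promoter window was matched for 57 of the 89 members (64.0%), so no promoter summary over the set is given.

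Tdgf1 was listed at 0 in MEF and on OSK days 0 and 1; day 3 gave 4 and 0, day 5 gave 6 and 8, and day 7 gave 16 and 13, against 3034 and 2542 in iPSC and 930 and 1610 in ESC. It rose from day 0 to day 5 (limma adjusted p = 0.00568), with no overlap between libraries. With added Jun it was at 0 at days 0, 1 and 3 and at 5 and 0 at day 7. Nodal was 3 in both OSK day 7 libraries, 5 and 8 with the hairpin, 1 and 0 with added Jun on that day, 344 and 367 in iPSC and 462 and 382 in ESC. Nodal was called between the hairpin and added Jun at day 7, but it entered the test only through ESC and iPSC and the call compares values of 8 and less.

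Lefty2 began at 0 and 1 on OSK day 0; day 3 gave 2 and 4, day 5 gave 5 in both libraries, and day 7 gave 8 and 5, against 1590 and 1676 in iPSC and 1378 and 1462 in ESC. Its day 5 call compares 0 and 1 with 5 and 5, and Lefty2 also entered the test only through ESC and iPSC. Foxh1 was listed at 0 in MEF, on OSK days 0 to 3 and in every library with added Jun, and was 9 and 7 on OSK day 7 and 1 and 5 with the hairpin. Lefty1 had its higher day 7 values with added Jun, 24 and 23, where OSK gave 5 and 13 and the hairpin 5 and 2; the stem cells ran from 243 to 456. It was lower with the hairpin than with added Jun (log2 difference -2.53, SE 0.703, adjusted p = 0.0167), while MEF libraries were at 4 and 26. The calls of Nodal, Foxh1 and Lefty1 between hairpin and added Jun ended without replicate 2 of OSK+cJun day 7 and without replicate 2 of the hairpin, and that of Nodal also without replicate 1 of the hairpin. The calls of Foxh1 and Lefty1 also ended without replicate 1 of OSK+cJun day 7, and that of Lefty2 at day 5 without replicate 1 of OSK day 0.

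Of a fixed list of 14 Nodal pathway genes, 13 were tested, 5 of them members and 1, the ligand gene Gdf3, in the comparison set. Gdf3 read 39 and 26 on OSK day 3, then 232 and 169 on day 5 and 197 and 165 on day 7, with 435 and 439 in iPSC and 479 and 537 in ESC. At OSK day 3 against day 0, 1 of the 13 was called higher (Gdf3), where 8.55% of all tested genes were, and at day 5, 3 were (Gdf3, Lefty2 and Tdgf1), where 9.8% were, with Bmp4 lower. A count of 1 in 13 is near that background. The list's median log2 difference at day 5 was 0.13, against 0 over all tested genes. With Jun added, 0 were called higher at day 3 (7.44% of all genes) and 2 at day 7 (Gdf3 and Lefty2, against 8.89% of all genes), with Bmp4 lower at both times. Added Jun against OSK alone at day 3 gave 2 lower, Gdf3 and Lefty2, against 3.54% of all genes, and the hairpin against added Jun gave 2 higher, Foxh1 and Nodal, against 6.91%, and 1 lower, Lefty1, against 7.22%.

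Fgf4, the growth factor gene through which stem cells stimulate their own Erk signalling, stood at 1222 and 1043 in iPSC and 1345 and 1344 in ESC. In the OSK course replicate 1 was above replicate 2 at every day: day 0 gave 22 and 8, day 1 gave 32 and 4, day 3 gave 47 and 6, day 5 gave 22 and 7, and day 7 gave 16 and 13. Both MEF libraries were at 0 and no call was made for it. The Wnt receptor gene Fzd10 was 18 and 6 on OSK day 7, 175 and 45 with the hairpin, 6 and 7 with added Jun on that day, 146 and 160 in iPSC and 369 and 548 in ESC. The first hairpin library was thus above both iPSC libraries, and Fzd10 was higher with the hairpin than with added Jun by a log2 difference of 3.59 (SE 0.725, adjusted p = 0.00217).

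The pluripotency regulators among the members were Crxos, Dppa2, Dppa3, Dppa4, Prdm14, Zic2, Utf1 and Lin28a. Prdm14 encodes a repressor that keeps naive stem cells low in DNA methylation, Dppa2 and Dppa4 act as a pair on chromatin of early embryo genes, Utf1 is a chromatin protein of undifferentiated cells, and Lin28a binds RNA and blocks let-7 maturation. Upstream RefSeq sequences of Utf1 and Lin28a are shown because these 2 genes have the highest iPSC level relative to ESC, and Lin28a was higher with the hairpin than with added Jun. The stretches end where the gene begins in GENCODE, at chr7:139943606-139943788 (plus) for Utf1 and chr4:134018842-134019066 (minus) for Lin28a in GRCm38, 5′ to 3′, with CpG in capitals.
Utf1: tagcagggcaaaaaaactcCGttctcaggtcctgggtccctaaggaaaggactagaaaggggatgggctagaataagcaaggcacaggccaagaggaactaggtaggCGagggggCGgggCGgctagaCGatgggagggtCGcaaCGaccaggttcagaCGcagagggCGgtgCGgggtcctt
Lin28a: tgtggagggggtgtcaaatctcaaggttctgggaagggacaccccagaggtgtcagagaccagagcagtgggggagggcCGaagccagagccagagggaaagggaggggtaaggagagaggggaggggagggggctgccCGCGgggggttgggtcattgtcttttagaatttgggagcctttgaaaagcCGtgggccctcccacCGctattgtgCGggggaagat
The printed stretches hold 10 CpG in Utf1 and 6 in Lin28a. Over the full 250-base windows the observed to expected ratio was 0.638 in Utf1 and 0.336 in Lin28a.

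Utf1 was at 0 in all MEF and reprogramming libraries except at day 7, where it was 10 and 6 with OSK and 4 and 2 with the hairpin. In iPSC it was 809 and 701, above the 204 and 307 of ESC. Lin28a was 9 and 3 on OSK day 7, 66 and 17 with the hairpin, and listed at 0 in both day 7 libraries with added Jun. In iPSC Lin28a was 583 and 797, 308% of its ESC mean, with ESC libraries at 106 and 342. Against added Jun, Lin28a was called higher with the hairpin (limma adjusted p = 0.000267). Utf1 was called as well, from 4 and 2 against 0 and 0; it entered the test only through ESC and iPSC, and its call ended without replicate 1 of the hairpin.

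Dppa3 (Stella), which protects maternal methylation marks in the early embryo, was 122 and 109 in iPSC against 486 and 605 in ESC, or 21.2%, the lowest iPSC share of any member. Crxos, a homeobox gene, was 290 and 239 against 745 and 667. Prdm14 was 165 and 132 against 341 and 233 and was at most 3 in every reprogramming library. Dppa4 was above ESC in iPSC, 362 and 354 against 263 and 222, and its neighbour Dppa2 overlapped, 279 and 304 against 348 and 174. At OSK day 7 Dppa2 was 22 and 6 and Dppa4 5 and 5. With the hairpin Dppa2 was 9 and 7 and Dppa4 0 and 0.

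Germ cell and early embryo genes gave 16 members, beyond those left out by name. They include Trap1a, Rbmxl2, Tex19.1, the subcortical complex genes Ooep and Khdc3, the piRNA factor gene Tdrd12, the meiotic gene Hsf2bp and the X-linked homeobox gene Rhox5. Trap1a was listed at 0 in MEF and on OSK days 0, 1 and 3, then read 0 and 1 on day 5 and 2 and 3 on day 7, with 626 and 630 in iPSC and 570 and 694 in ESC. Tex19.1 was 12 and 5 on OSK day 7 and at most 1 in every library with added Jun or the hairpin, against 244 and 194 in iPSC and 423 and 377 in ESC. Triml1 and Triml2, neighbours on chromosome 8, read 4 and 6, and 2 and 3, on OSK day 7 and 0 in both hairpin libraries. Khdc3 was 2 and 4 on OSK day 7 and likewise at 0 with the hairpin. Ooep was 9 and 8 on OSK day 7 and at most 5 in every other library outside the stem cells, where it reached 627 and 504 in iPSC and 454 and 241 in ESC. These day 7 values are small, and each is described, not tested.

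Of 13 zinc-finger members in repeated clusters, the largest block was 7 genes at chr4:145868794-147391004 (GRCm38): Zfp986, Zfp987, Zfp600, Zfp981, Zfp989, Rex2 and Zfp978. The block holds 18 genes of the table and 0 of the comparison set. Smaller groups were 3 members at chr7:42705469-43192109, Zfp936 among them, and 2 at chr13:66418114-66698243, 2410141K09Rik and Zfp640; 1 member stood apart. A Cys2His2 finger was found at least 3 times in the translated transcripts of all 13. Rex2 (ENSMUSG00000067919, chr4:147021850-147060794, plus strand) and Zfp600 (ENSMUSG00000066007, chr4:146156824-146198755, plus strand) are shown upstream of their starts because the copies differ so little that reads may not tell them apart. The stretches are chr4:147021600-147021849 and chr4:146156577-146156823 in RefSeq GRCm38.p6, 5′ to 3′, and capitals mark a base with no partner in the alignment of the 2 windows.
Rex2: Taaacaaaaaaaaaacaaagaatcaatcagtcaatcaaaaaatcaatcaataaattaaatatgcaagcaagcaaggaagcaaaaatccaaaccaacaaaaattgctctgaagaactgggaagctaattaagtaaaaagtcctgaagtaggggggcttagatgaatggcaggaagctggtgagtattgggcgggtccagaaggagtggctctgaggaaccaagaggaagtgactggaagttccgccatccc
Zfp600: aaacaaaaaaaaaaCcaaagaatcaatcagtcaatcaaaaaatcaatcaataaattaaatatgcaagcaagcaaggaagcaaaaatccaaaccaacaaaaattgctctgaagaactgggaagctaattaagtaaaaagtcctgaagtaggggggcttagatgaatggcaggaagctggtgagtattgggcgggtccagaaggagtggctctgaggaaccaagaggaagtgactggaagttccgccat
Over the 250-base windows 249 bases were identical, 0 were mismatched and 2 stood opposite a gap, an identity of 99.2%.

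Values of this family are uncertain for the same reason. Every stretch of 75 bases of a member's transcripts was looked up in the transcripts of all other genes: the share found elsewhere was 82.4% in Rex2, 81.7% in Zfp987, 77.4% in Zfp986 and 74.5% in Zfp600. The median over the 13 was 35.7% (3.40% to 82.4%), and over the other 75 members with a transcript it was 0, with 54 at 0. Outside the zinc-finger set, Xlr3a shared 33.0%, Khdc3 31.3%, Dppa2 25.7%, Pnma5 21.2%, Gm26686 20.3% and Dppa4 20.1%. Abcb1a shared 12.5%, Lefty1 11.7%, Crxos 10.5% and Lefty2 7.77%, and the remaining members outside the set shared less. The values of all these named genes carry the same doubt. RSEM is named in the submitters' processing notes, but how shared reads were divided is not given in the sources used here.

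Rex2 was 2353 in both ESC libraries and 2256 and 2074 in iPSC. It was 23 in both OSK day 5 libraries, 18 and 13 on day 7, 14 and 22 with the hairpin and 9 and 0 with added Jun on that day. Zfp600 was 1455 and 1211 in ESC, 962 and 743 in iPSC and at most 14 in every other library. Zfp987 was 968 and 979 in ESC and 589 and 754 in iPSC, and outside them swung between libraries of 1 group: 20 and 0 on OSK day 7, 30 and 0 with the hairpin, 0 and 26 with added Jun on that day. Zfp989 did likewise, with 41 and 0 on OSK day 1, then 0 and 23 on day 3 and 48 and 13 on day 5. Replicates of these 2 genes thus differed by more than 10 in several groups. Both iPSC libraries lay below both ESC libraries in 11 of the 13; Zfp978 lay above and Zfp989 overlapped.

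Outside ESC and iPSC, some members reached values far above their OSK day 7 level in single libraries: 175 in Fzd10, 153 in Palm3, 148 in Gldc and 144 in Tgm1, all of them with the hairpin.

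Tgm1, the transglutaminase gene of the skin barrier, was 8 and 9 on OSK day 0; day 3 gave 14 and 17, day 5 gave 81 and 119, and day 7 gave 22 and 12. The second day 5 library lay within the ESC range (98 and 210), below iPSC (123 and 230), and both day 7 libraries lay below all stem cell libraries. With added Jun, day 1 gave 63 and 49, day 3 gave 43 and 69, and day 7 gave 119 and 106, and the hairpin gave 73 and 144. It rose by 3.39 on OSK day 5 (SE 0.565, adjusted p = 0.00024) and by 3.08 at day 7 with added Jun (SE 0.565, adjusted p = 0.000606) on the log2 scale. Both calls held without any 1 of their libraries. The OSK day 7 libraries of Tgm1 were lower than those of day 5 and of the other day 7 groups. Membership required an OSK day 7 mean under 20, so this low value follows from the rule and is described only.

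Alpk3, a kinase-like gene of heart muscle, was 20 and 0 in MEF and 2 and 0 on OSK day 0; day 3 gave 34 in both libraries, day 5 gave 73 and 27, and day 7 gave 15 and 22. Every library with added Jun was at 0 or 1. At day 3 it differed between added Jun and OSK alone by -4.63 (SE 1.04, adjusted p = 0.00758), a call that ended without either OSK day 3 library and without replicate 1 of OSK+cJun day 3. Ppfia4, a liprin gene, was 26 and 20 on OSK day 0, 106 and 133 a day later and 24 and 10 on day 7. With added Jun, Sh3tc1 was 10 and 4 on day 0, then 34 and 82 on day 3 and 32 and 59 on day 7. Abcb1a, a drug efflux pump gene, was 4 and 6 in MEF, 32 and 114 on OSK day 0 and 6 and 11 on day 7, under the threshold after standing above it. The low OSK day 7 values of Alpk3, Ppfia4 and Abcb1a likewise follow from the rule.

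**Figure D3:**
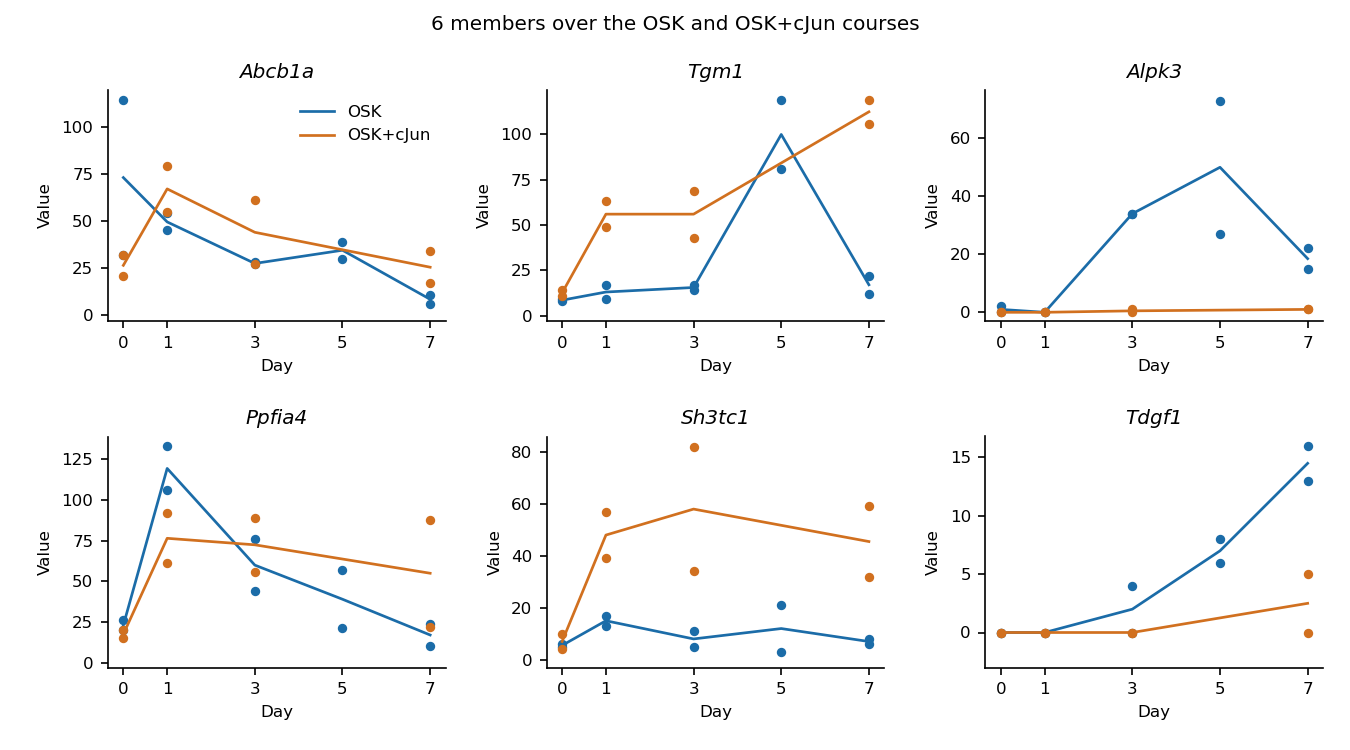
Values of 6 members against day of reprogramming in the OSK (blue) and OSK+cJun (orange) courses; points are libraries and lines join group means, with no OSK+cJun library at day 5. Abcb1a is lowest at day 7 with OSK, Tgm1 peaks at day 5 with OSK, Alpk3 rises with OSK alone, and Tdgf1 reaches 16 at most. Low OSK day 7 values were required by the rule.

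Day by day, few members were called against OSK day 0. At day 1 there were 3 of 89, 1 higher and 2 lower, where 6.3% of all tested genes were called (3.18% higher, 3.12% lower), and 28 of 140 in the comparison set. Ppfia4 was among them, higher, and Xlr3a, lower. The comparisons of days 1, 3 and 5 share the 2 day 0 libraries. The count was 1 without replicate 1 of OSK day 0, without replicate 2 of OSK day 0 or without replicate 1 of OSK day 1, and 0 without replicate 2 of OSK day 1. At day 3 there were 10 members, 6 higher and 4 lower, against 17.2% of all genes (8.55% higher, 8.69% lower) and 82 of 140. Camk2b, the brain calmodulin kinase gene, went from 1 and 1 to 12 and 8 (log2 difference 2.44, SE 0.546, adjusted p = 0.00317), and Trpm1, a channel gene of retina and melanocytes, from 0 and 4 to 21 and 13 (adjusted p = 0.0223), a call that ended without replicate 1 of OSK day 0 and without either OSK day 3 library. Alpk3 was called too (log2 difference 4.34), but not without replicate 2 of OSK day 0. Among those lower were AU018091, B4galnt3 and the glutaminase gene Gls2. Without replicate 1 of OSK day 3 the count was 6, and 4 calls, those of Camk2b, Dnajc6 and Hsd17b14 among them, held without any 1 of the 4 libraries.

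At day 5, 17 members were called, 16 higher and 1 lower (against 19.7% of all tested genes, 9.8% higher and 9.86% lower), and 97 of 140 in the comparison set. With both directions together the members' share was near the background, while 18.0% of members were higher. The rule kept MEF low, and on OSK day 0 both libraries were at 0 for 30 members, so members had little room to fall. The share called higher is therefore not read as a result about the members. The members' median log2 difference was 0.53 and that of the comparison set 2.91, with 0 over all genes. Higher were, among others, Hsd17b14, an enzyme of steroid metabolism (0 and 0 to 6 and 8, in the test only through ESC and iPSC), Dnajc6 (0 and 0 to 8 and 5), Accsl (0 and 0 to 9 and 3, likewise in the test only through ESC and iPSC, and not called without replicate 1 of OSK day 5) and Arl14epl (0 and 6 to 21 and 23, not called without replicate 1 of OSK day 0). Lefty2, Platr14, Slc30a2 and Slc4a5 were called higher too, and they also entered the test only through ESC and iPSC. A group mean of 10 or more was reached by 8 of the 17. The count was 11 without replicate 1 of OSK day 0 and 14 without replicate 1 of OSK day 5, the library that stood apart. Of the 17 calls, 8 held when any 1 of the 4 libraries was left out, among them Alpk3, Camk2b, Cecr2, Dnajc6, Hsd17b14, Tdgf1 and Tgm1.

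Between days 5 and 7 of OSK, 32 members (36.0%) had both day 7 libraries above both day 5 libraries and 7 (7.87%) had both below, where 22.6% and 21.5% of all genes did. Day 7 entered the rule, so this is a description. Among the 32 were Tdgf1, Nodal, Foxh1, Utf1, Lin28a, Prdm14, Dppa3, Dppa4, Ooep, Khdc3, Tex19.1, Triml1 and Triml2. Among the 7 were Tgm1, Alpk3, Trpm1, Abcb1a, Rex2 and Zfp981.

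With added Jun, 7 members were called at day 3 against its own day 0, 5 higher and 2 lower, where 14.3% of all genes were called (7.44% higher, 6.9% lower). At day 7, 9 members were called, 4 higher and 5 lower, where 17.7% of all genes were (8.89% higher, 8.79% lower). Both comparisons share the day 0 libraries. The comparison set gave 46 and 76 of 140. Higher at day 3 were Sh3tc1, Tgm1, Fzd10, Ppfia4 and Smtnl2, and the folate receptor gene Folr1 was among those lower (15 and 6 to 1 and 0). Higher at day 7 were Tgm1, Sh3tc1, Camk2b and Lefty2, and Folr1, Tdrd12, Lncenc1 and Grik3 were among those lower. A group mean of 10 or more was reached by 4 of these 9, so 5 calls rest on means under 10. Lefty2 went from 0 and 0 to 2 and 3, and Tdrd12 from 4 and 7 to 0 and 0. Grik3 went from 9 and 6 to 1 and 2, and Smtnl2 at day 3 from 0 and 0 to 6 and 4. Lefty2, Tdrd12, Grik3 and Smtnl2 entered the test only through ESC and iPSC. The day 3 count was 2 without replicate 2 of OSK+cJun day 3 and 3 without replicate 2 of OSK+cJun day 0. The day 7 count was 4 without replicate 1 of OSK+cJun day 7 and 3 without replicate 2 of OSK+cJun day 0.

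Set directly against OSK at day 3, added Jun gave 8 called members, 2 higher and 6 lower, against 7.54% of all genes (4% higher, 3.54% lower) and 55 of 140 in the comparison set, all 55 lower. B4galnt3, a glycosyltransferase gene, was 21 and 16 with added Jun against 2 and 0, and stayed at 11 to 26 in every OSK+cJun library while OSK libraries ran from 0 to 8. Its log2 difference at day 3 was 3.48 (SE 0.650, adjusted p = 0.00192), and it was the 1 call that held without any 1 of the 4 libraries. Sh3tc1 was also higher, and Alpk3, Arl14epl, Crxos, Dnajc6, Hsd17b14 and Lefty2 were lower. A group mean of 10 or more was reached by 4 of the 8. Below it, Crxos was 2 and 7 with OSK against 0 and 0, and Dnajc6 5 and 4 against 0 and 1. Hsd17b14 was 3 and 3 with OSK against 0 and 0, and Lefty2 2 and 4 against 0 and 0. Both Hsd17b14 and Lefty2 entered the test only through ESC and iPSC. Leaving out 1 library gave 4 calls without either OSK+cJun day 3 library and 2 without either OSK day 3 library. The median log2 difference of the members was 0, with -1.39 in the comparison set and -0.02 over all genes. The fibroblast marker sum was 33750 and 32646 with added Jun at day 3 and 28403 and 26239 with OSK, and its part in these values was not tested. A test of the day 0 to day 3 difference itself between the courses, added after seeing the data, called 1 member, Dnajc6, where 1.12% of all genes were called (0.63% higher, 0.486% lower) and 13 of 140 in the comparison set.

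Sap30 is a subunit of the Sin3 histone deacetylase complex. At day 7, 11 members reached 10% of their ESC mean with the hairpin, against 3 with OSK and 4 with added Jun. The rule kept OSK day 7 means under 20, which holds down the OSK count and not the hairpin count. These counts are therefore a description only. The hairpin values of Palm3, a paralemmin gene, were 39 and 153 against 6 and 5 with OSK, 4 and 1 with added Jun, 232 and 252 in iPSC and 217 and 198 in ESC. The glycine decarboxylase gene Gldc was 148 and 100 against 22 and 14 with OSK and 18 and 13 with added Jun. Cecr2, a bromodomain gene of chromatin remodelling, was 30 and 42 against 5 and 4 with OSK and 0 and 2 with added Jun. Tmem8 was 49 and 92 against 18 and 13 with OSK and 7 and 14 with added Jun.

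Against OSK day 7, 18 members (20.2%) had both hairpin libraries higher and 24 (27.0%) both lower, where 24.5% and 26.4% of all genes did. Both shares lay near the background, and the comparison enters the rule, so it is described only. The 18 include Lin28a, Palm3, Fzd10, Gldc, Cecr2, Tmem8, Nodal and Tgm1. The 24 include Tdgf1, Foxh1, Utf1, Dppa3, Dppa4, Ooep, Khdc3, Tex19.1, Fgf4 and Crxos. The median log2 difference was 0 for the members and -0.53 for the comparison set.

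Against added Jun at day 7, which did not enter the rule, 23 members were called with the hairpin, 22 higher and 1 lower (25.8% of members), where 14.1% of all genes were called, 6.91% higher and 7.22% lower. In the comparison set 57 of 140 were called, 52 of them higher. On OSK+cJun day 7 both libraries were at 0 for 24 members, which left little room for lower calls. The members' share called higher is therefore not read as a result about them. The log2 difference was 4.40 for Cecr2 (SE 0.695, adjusted p = 0.000341), 4.63 for Palm3 (SE 0.751, adjusted p = 0.000414), 2.64 for Tmem8 (SE 0.664, adjusted p = 0.00941) and 2.91 for Gldc (SE 0.734, adjusted p = 0.00951). Slc39a4, a zinc importer gene within 500 kb of Foxh1, was 5 and 11 against 0 and 0, and was called, though it too entered the test only through the stem cells. The same holds for the called genes Utf1, Accsl, Dppa2, Rbmxl2, Pla2g1b, Nodal, Foxh1 and Hsd17b14. A group mean of 10 or more was reached by 11 of the 23, so 12 calls rest on group means under 10. Jun and the hairpin differ between the groups at once, so their parts cannot be told apart, and Sap30 itself was lower with added Jun than with OSK alone. Without replicate 1 or 2 of the hairpin the count was 13 and 9, and without replicate 1 or 2 of OSK+cJun day 7 it was 10 and 15. The calls of Cecr2, Fzd10, Lin28a, Palm3 and Slc39a4 held without any 1 of these libraries. Tmem8 was not called without replicate 1 of OSK+cJun day 7 or replicate 2 of the hairpin, nor Gldc without replicate 2 of OSK+cJun day 7 or replicate 1 of the hairpin. With the spread taken from the 4 compared libraries alone, 1 call was made. The fibroblast marker sum differs between these groups too, 6680 and 7907 against 36307 and 35467, as does the pluripotency marker sum, 755 and 714 against 86 and 58, and their part was not tested.

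**Figure D4:**
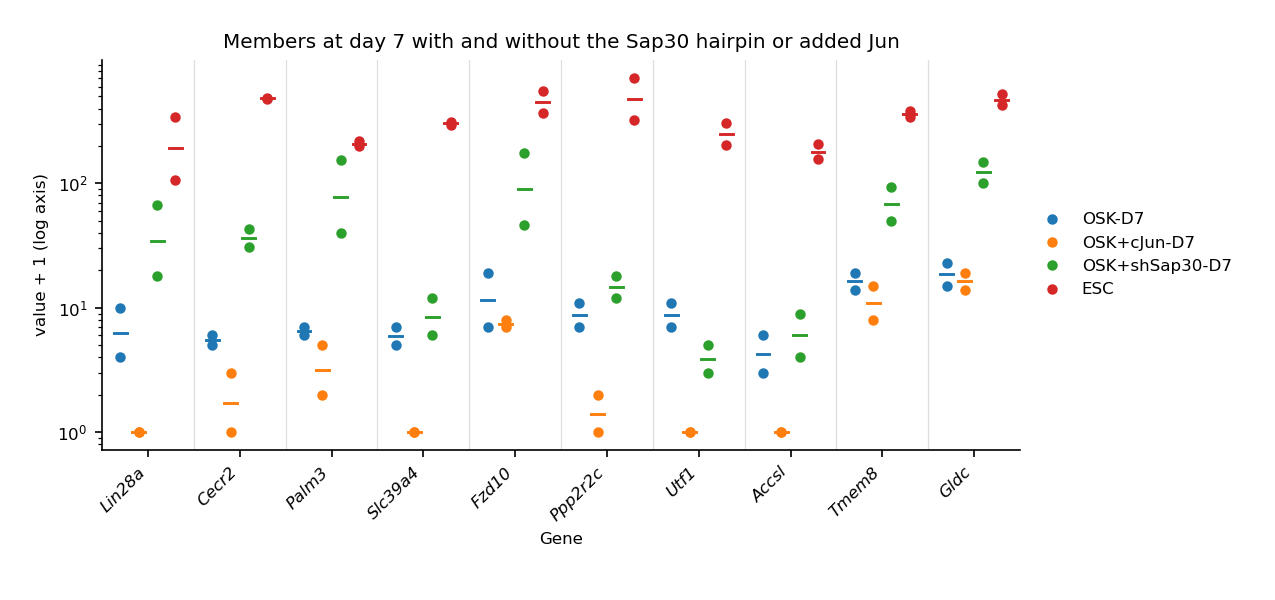
Value plus 1 on a log axis for 10 members on day 7 with OSK (blue), added Jun (orange) and the Sap30 hairpin (green), and in ESC (red). Points are libraries and bars geometric means of value plus 1. Hairpin points of Lin28a, Cecr2, Palm3, Fzd10, Tmem8 and Gldc lie above both other day 7 groups, while those of Utf1 lie below OSK.

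In established iPSC the median member stood at 84.2% of its ESC mean, as given above. Both iPSC libraries were below both ESC libraries for 51 members (57.3%) and above for 13 (14.6%), where 28% and 26.9% of all tested genes were. The median log2 difference was -0.25 in the members and -0.42 in the comparison set, with 0 over all genes, and both sets were chosen on ESC with a lower threshold for iPSC. The 13 above were Tdgf1, Lefty2, Utf1, Lin28a, Dppa4, Zic2, Ooep, Hsf2bp, Gldc, Abcb1a, Palm3, Tmem8 and Zfp978. Gldc was 1099 and 780 against 423 and 523, 199% of the ESC mean, and Tdgf1 stood at 220%. Of the others among the 12 with the highest uncorrected ESC means, the noncoding RNA Lncenc1 was 736 and 731 against 1239 and 1458, Calcoco2, an autophagy receptor gene, 655 and 667 against 1419 and 860, 2410141K09Rik 587 and 652 against 1096 and 1291, and Rab11fip4 369 and 409 against 829 and 590. Smtnl2 was 757 and 697 against 821 and 803. The fibroblast marker sum was 7908 and 14593 in iPSC and 218 and 751 in ESC, and its part in these differences was not tested.

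**Figure D5:**
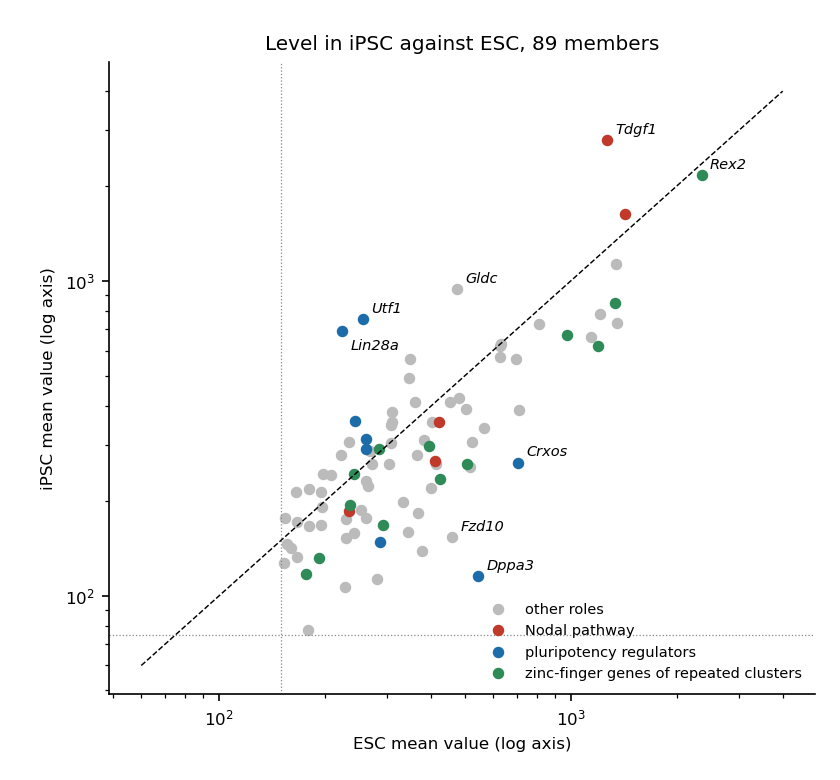
Mean value in iPSC (vertical, log axis) against mean value in ESC (horizontal, log axis) for the 89 members, 1 point per gene, with the dashed line of equal levels and dotted lines at the thresholds of 75 and 150. Utf1, Lin28a, Gldc and Tdgf1 lie above the line, and Dppa3, Crxos and Fzd10 below it.

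Fixed lists show where the members sit among genes of like function. Of 24 naive and general pluripotency factors, 4 were members (Prdm14, Lin28a, Utf1 and Fgf4) and 13 belonged to the comparison set. Tcl1, also of this list, met the thresholds but was left out by name. At OSK day 3, 10 of the 24 were called higher than at day 0, where 8.55% of all tested genes were, all 10 of them outside the 89, among them Gbx2, L1td1, Nr0b1, Nr5a2, Sall4, Tdh, Tfcp2l1, Zfp42 and Zscan10. All 10 were also called higher at day 5, where 9.8% of all genes were, with Tbx3 lower, and all 10 were lower with added Jun than without it at day 3, where 3.54% of all genes were. The day 5 comparison shares the day 0 libraries and the added Jun comparison the OSK day 3 libraries, so this overlap is partly built in. Added Jun had 3 higher at day 3 (7.44% of all genes) and 9 at day 7 (8.89%) against its day 0, and the hairpin had 11 higher than added Jun (6.91%), Lin28a and Utf1 among them. Tfcp2l1, for one, was 764 and 683 on OSK day 3 and 86 and 43 with added Jun.

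Of 12 Dppa and Dppa-linked genes, 6 were members: Dppa2, Dppa3, Dppa4, Ooep, Khdc3 and Tex19.1. The same shares over all genes stand beside the other lists: 3.18%, 8.55% and 9.8% higher on OSK days 1, 3 and 5. With added Jun against its day 0 they were 7.44% higher and 6.9% lower at day 3, and 8.79% lower at day 7. Added Jun against OSK at day 3 had 3.54% of all genes lower. The hairpin against added Jun had 6.91% higher and 7.22% lower. Zfp57, no member, was the 1 gene of this list called higher on OSK days 3 and 5. The hairpin against added Jun had 3 higher (Dppa2, Trim71 and Zfp57), of which Dppa2 entered the test only through ESC and iPSC. With added Jun at day 3 Zfp57 was higher and Trim71 lower than at day 0. Of 25 germline genes, 23 were in the table, and Tdrd12 and Rhox5 were members. Dazl, Hormad1 and Tuba3a of this list also met the thresholds but were left out by name, so the exclusion lowers this count. Of the list 22 were tested, and 0, 0 and 2 were called higher on OSK days 1, 3 and 5 (Ddx4 and Piwil2 at day 5). At day 7 with added Jun 1 was lower, Tdrd12. Tex15 was lower at day 3 with added Jun and higher with the hairpin than with added Jun, where Brdt was lower. Of 18 DNA methylation and silencing factors 0 were members, and 1, 3 and 3 were called higher on OSK days 1, 3 and 5 (Tet2, then Uhrf1 and Zfp57 as well). With added Jun at day 3, Tet1 and Tet2 were lower than with OSK alone, and the hairpin had Dnmt3b and Zfp57 higher than added Jun. Of 10 genes of the 2-cell stage 0 were members; 5 were tested, and 2, Usp17lc and Zscan4f, were called higher on OSK day 1 and 0 at days 3 and 5.

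Chromosome 4 held 14 members, 15.7% against 6.09% of the table's genes, and chromosome 7 held 15, 16.9% against 7.28%. The zinc-finger clusters supply 7 of the 14 on chromosome 4 and 3 of the 15 on chromosome 7, where 1 more zinc-finger member stands apart. Neighbours within 500 kb, beside the zinc-finger clusters, were Lefty2 with Lefty1, Dppa4 with Dppa2, Triml1 with Triml2, Slc39a4 with Foxh1, Rimklb with Dppa3, Lin28a with Slc30a2, B4galnt3 with Cecr2, Alpk3 with Ap3b2, Fam169a with Lncenc1 and Pnma5 with Xlr3a. Between Rimklb and Dppa3 lies Gdf3, a gene of the comparison set. Neighbours did not move alike in every case: B4galnt3 had both libraries higher with added Jun than without on each shared day, while Cecr2 did not, and Alpk3 was called higher on OSK day 3 while Ap3b2, at 2 and 2 on day 0 and 1 and 1 on day 3, was not called.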

How the data were processed

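RNA of 26 libraries, 2 in each of 13 groups, was read on a NextSeq 500 after TRIzol extraction and a TruSeq RNA kit, per the labels' protocols. The submitters' processing notes name bcl2fastq, Bowtie2, RSEM and mm10, without versions or order. The deposited values are whole-number scores that the authors had brought to the same distribution in every library: sorted values are equal to within 2 at every rank. The normalising step is not stated, and read depth is unknown, so no counting interval is given. All 26 sample columns were used. Forcing 1 distribution on all libraries can shift low values and hides global changes.

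The members and gene lists were chosen with earlier results of these data known, and the roles were assigned after values were seen. Gene symbols were matched for 18039 of 18198 identifiers, with positions from GENCODE on GRCm38 (mm10). Differences were fitted with limma 3.58.1 (R 4.3.3) on log2(value + 1) for 16038 genes with 10 or more in at least 2 libraries, with 1 mean per group over all 26 libraries and a robust variance trend (statmod 1.5.0), and p-values were adjusted by Benjamini-Hochberg. Called means an adjusted p below 0.05 and a log2 difference of at least 1 in size. The fit was tested on simulated data. Changes were put only into genes with a mean log2(value + 1) over the groups above 3, so calls on values near 0 were not checked. Groups that chose the members were compared by description only. Named with values were up to 10 called members per comparison, the 12 with the highest ESC mean, members in gene lists or neighbouring pairs, 3 genes on each side of the OSK day 7 threshold, the 5 highest outside stem cells and up to 8 comparison genes; names beyond these were chosen after their values were seen. Values of some genes under these rules are not reported here, though the counts include them. Predicted gene models were counted and not named, apart from those in these groups. Promoter windows came from RefSeq (GRCm38.p6) and were aligned with Biopython 1.88; tables used Python 3.11.15, pandas 2.3.3 and numpy 2.4.6, and figures matplotlib 3.10.9. Over all 32817 windows, on both strands, the E-box CACGTG was found in 6.02%, the E2F-type motif GCGGGA in 16.9%, the octamer ATTTGCAT in 1.60%, the Sox-type motif AACAAT in 9.42%, the AP-1 motif TGACTCA in 4.46% and the TATA box TATAAA in 12.4%; none of these 6 was in the windows that the printed stretches came from.

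Same-numbered replicates were checked for pairing. Alternatives were other added constants, no filter, no variance trend, the spread of the compared libraries alone, a replicate block, and leaving out each library.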

Additional observations from a re-analysis of the deposited data

Results flagged for a closer look

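The day 0 to day 3 difference of Dnajc6, the auxilin gene of clathrin uncoating, differed between the courses by -3.75 on the log2 scale (SE 0.849, limma adjusted p = 0.0411). With OSK Dnajc6 went from 0 and 0 to 5 and 4, and with added Jun from 5 and 1 to 0 and 1. Both OSK day 0 libraries were at 0, so the size of this difference depends on the constant added before the log. The comparison was added after seeing the data, all these values are below 10, and the call held in 4 of 14 alternatives, over which the difference ran from -8.35 to -0.83.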

How the results depend on the processing

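All counts here are called members, in the order OSK day 1, day 3 and day 5 against day 0, added Jun at day 3 and day 7 against its day 0, added Jun against OSK at day 3, hairpin against added Jun, and the day 0 to day 3 difference between courses. With 0.1 added before the log the counts were 4, 5, 15, 5, 7, 6, 15 and 0. With 10 added they were 2, 3, 8, 4, 3, 5, 11 and 0. With the spread of the compared libraries alone they were 0, 3, 4, 3, 2, 1, 1 and 0. Without a variance trend the last was 3. The cause of these moves was not tested. Leaving out 1 library gave 0 to 1, 6 to 8, 11 to 18, 2 to 6, 3 to 8, 2 to 4, 9 to 15 and 0 to 1. With the replicate block they were 3, 11, 19, 7, 9, 9, 23 and 1. Same-numbered replicates did not pair in the median: over 78 pairs of groups the median correlation of their deviations was -0.00127 (-0.0883 to 0.331). It was over 0.1 in 28 pairs, so replicate differences did go together in some groups, and the main fit has no replicate block. There are 2 replicate numbers only. Of 78 single calls, 7 held in every alternative run and 0 reversed; among the 7 were Tgm1 at OSK day 5 and added Jun day 7, and Alpk3 at OSK day 5. Geometric means in place of means gave 93 members, 88 of them shared. The alternatives for the promoter CpG share were not run, since windows were matched for 57 of 89 members. Values near 0 set the limit: 42 members were tested through ESC and iPSC only.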
